A study of Homo sapiens with 19 samples.

Results

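The genes described here encode the E proteins TCF3, TCF4 and TCF12 and the inhibitor of DNA binding proteins ID1, ID2, ID3 and ID4. They were listed by name and found by Ensembl gene ID, 7 of the 19942 genes of the TPM and eCLIP tables, and they account for 150 of the 256980 transcripts of the rRNA-depleted table. E proteins are basic helix-loop-helix transcription factors that dimerize with tissue-restricted partners, such as HAND2 in sympathetic neuroblasts, and bind the E-box motif CANNTG. ID proteins have the helix-loop-helix but no basic region, so that an E protein bound by an ID protein cannot bind DNA, and transcription of the ID genes is a classical response to BMP signalling through SMAD proteins. TCF4 is the gene also known as E2-2 and is distinct from TCF7L2, an HMG-box factor of the WNT pathway for which the alias TCF4 is in use.

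All libraries were made from SH-SY5Y, an established human neuroblastoma cell line. Poly-A RNA-seq was performed on whole cells transfected with a control siRNA (siCtrl) or an siRNA against G3BP1 or G3BP2 (siG3BP1, siG3BP2). From sodium arsenite (AS)-treated cells both a cleared lysate (Total) and stress granule cores taken from that lysate with an anti-G3BP1 antibody (SG) were sequenced, with an RNA selection that is not given in the sources used here. rRNA-depleted RNA-seq compared untreated cells with cells given 500 μM AS for 1 h, and each of these 7 RNA-seq conditions had 1 library. eCLIP of G3BP1 and of G3BP2, in which UV-crosslinked RNA is immunoprecipitated with the protein, had 2 libraries each in untreated (Ctrl) and AS-treated (AS) cells. The GEO labels of the siRNA, Total, SG and eCLIP libraries name 50 mM AS for 1 h for all of them, siCtrl and Ctrl included, while the methods of the study give the micromolar dose. With 1 library per condition, an RNA-seq difference has no replicate check and no p-value, and a fold compares 2 libraries. The libraries are bulk, so that less RNA per cell and fewer cells with the RNA cannot be told apart. The GEO labels do not say whether the eCLIP duplicates came from separate cultures, so the spread between them may be technical.

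The labelled cell type was checked first. Of 10 markers of adrenergic neuroblastoma, 9 were above 1 TPM in siCtrl, with a summed level of 4225 TPM there and between 3143 and 5353 TPM over the 5 TPM libraries. The 4 blood markers summed to at most 1.02 TPM in any library, and CD3E and HBB were at 0 in all 5. The 5 fibroblast markers were each above 1 TPM in siCtrl and had a summed level of 42.6 TPM there, which was 43.3 TPM in the Total and 82.5 TPM in the SG library, and their part in the SG values was not tested. The targeted genes followed the siRNA labels. G3BP1 was at 18.7 TPM in siCtrl and 6.0 TPM in siG3BP1, and G3BP2 was at 38.1 TPM in siCtrl and 11.4 TPM in siG3BP2.

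The E protein genes are long and the ID genes are compact, with 1 exception among the mRNAs. On GRCh38, TCF4 lies on the minus strand of chromosome 18 at 55222185 to 55664787 and has 93 annotated transcripts, the longest of 8343 nt. TCF12 lies on the plus strand of chromosome 15 at 56918623 to 57299281 with 28 transcripts of up to 6114 nt, and TCF3 on the minus strand of chromosome 19 at 1609291 to 1652615 with 21 transcripts of up to 4735 nt. The longest transcripts of ID3 (chromosome 1, 23557926 to 23559501, minus strand), ID1 (chromosome 20, 31605283 to 31606515, plus strand) and ID2 (chromosome 2, 8678845 to 8684461, plus strand) measure 950, 1233 and 2041 nt. ID4 (chromosome 6, 19837370 to 19842197, plus strand) goes against the division into long and short mRNAs, since its single transcript of 3873 nt, of which 3002 nt are 3′UTR, exceeds the median of 3340 nt over all genes. The median longest transcript was 6114 nt for the E protein genes and 1637 nt for the ID genes, a ratio of 3.73. Genes annotated on the opposite strand overlap TCF4 (among them TCF4-AS1 and TCF4-AS2), TCF12 (SNORD13D), ID2 (ID2-AS1) and ID4 (LNC-LBCS), and since no source states that strand was used in counting, reads of these pairs cannot be told apart.

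The members were also searched for 2 short sequences because the SG and eCLIP comparisons concern features of the mRNA. A near-palindromic motif, CCAGCCTGG or its reverse complement CCAGGCTGG, was present in the canonical mRNAs of TCF12 and ID1 and in those of 28.0% of all genes. The AU-rich element core TATTTAT, searched on the mRNA strand of the 3′UTR, was present in TCF4, TCF12, ID2 and ID4 and in 30.9% of all genes. The TCF12 motif lies in the coding sequence (exon 10 of 21, chr15:57232330-57232358, plus strand), and the ID1 motif in the 3′UTR (exon 2 of 2, chr20:31606226-31606254, plus strand). The elements of TCF4 (exon 20 of 20, chr18:55222935-55222963, minus strand) and of ID2 (exon 3 of 3, chr2:8683875-8683903 and chr2:8684114-8684142, plus strand) are in the 3′UTR. These sites are shown for the most SG-enriched E protein mRNA, the most abundant ID mRNA and the 2 members that hold the longer motif, 5′ to 3′ from the GENCODE transcripts, with the motif in capitals and its flanks in lower case:
TCF12: atgggatgagCCAGCCTGGttttggtgga
ID1: ttaactgcatCCAGCCTGGggctgaggct
TCF4: tattaacactgTATTTATactttctcaaa
ID2, first element: gtgatattcgtTATTTATgaaaaagactt
ID2, second element: tgctgtgtataTATTTATatataaatata
A match is a description of these letters only, and neither motif separates the E protein mRNAs from the ID mRNAs.

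In cells given the control siRNA, ID mRNAs were the more abundant group in TPM, which is a level per transcript length. ID2 was at 319 TPM, ID1 at 289 TPM and ID3 at 156 TPM, while ID4 was at 11.2 TPM. TCF3, the most abundant E protein mRNA, was at 180 TPM and thus between ID1 and ID3, and TCF12 (21.7 TPM) and TCF4 (21.0 TPM) were close to each other. Summed TPM of the E protein mRNAs was 0.287 times that of the ID mRNAs, and TCF3 made up 80.8% of the E protein sum.

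**Figure D1:**
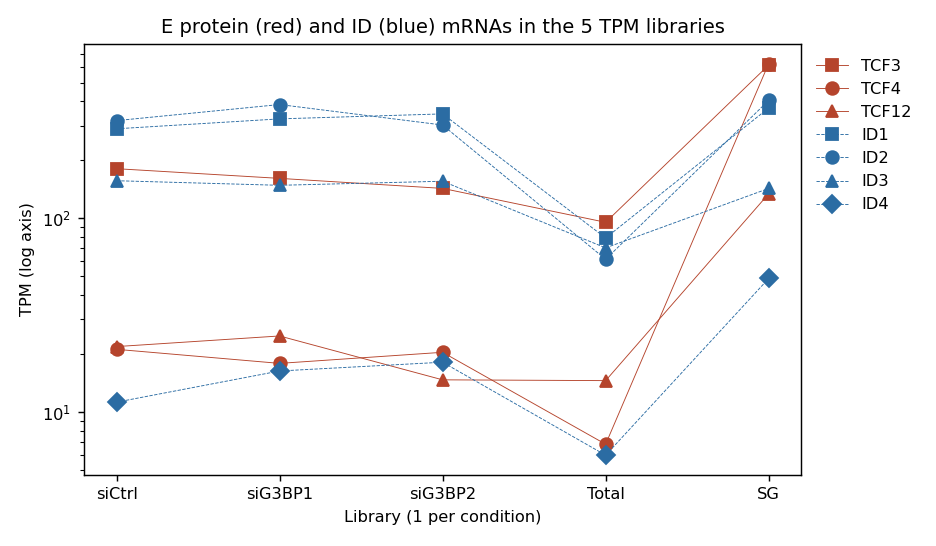
TPM (log axis) of the 7 mRNAs in the 5 TPM libraries, 1 library per condition, with E protein mRNAs in red on solid lines and ID mRNAs in blue on dashed lines that only join the points of a gene. TCF4 rises from 6.81 TPM in Total to 628 TPM in SG, while ID3 goes from 70.2 to 142 TPM.

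Knockdown of either G3BP moved no member past 2-fold. TCF4 was at 17.8 TPM in siG3BP1 and 20.3 TPM in siG3BP2, TCF3 at 160 and 142 TPM, and TCF12 at 24.7 and 14.6 TPM. The TCF12 value in siG3BP2 was the lowest E protein value relative to siCtrl, with a log2 fold of TPM + 1 of -0.54, against 0.17 in siG3BP1. ID1 was at 325 and 345 TPM, ID2 at 386 and 302 TPM and ID3 at 148 and 155 TPM. ID4 had the highest log2 fold of the 7 in both, 0.50 in siG3BP1 (16.3 TPM) and 0.64 in siG3BP2 (18.1 TPM), at percentiles 95.3 and 97.1 of all genes above 1 TPM. Since both knockdowns are read against the same siCtrl library, the repeat of the ID4 value is not an independent one. The call of 0 members stands beside 0.692% of all genes called higher and 1.22% called lower in siG3BP1, and 0.752% and 1.77% in siG3BP2, where a call was a fold of TPM + 1 above 2 or below its inverse with more than 1 TPM in the higher library. Median log2 folds over all genes above 1 TPM were -0.08 and -0.12.

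**Figure D2:**
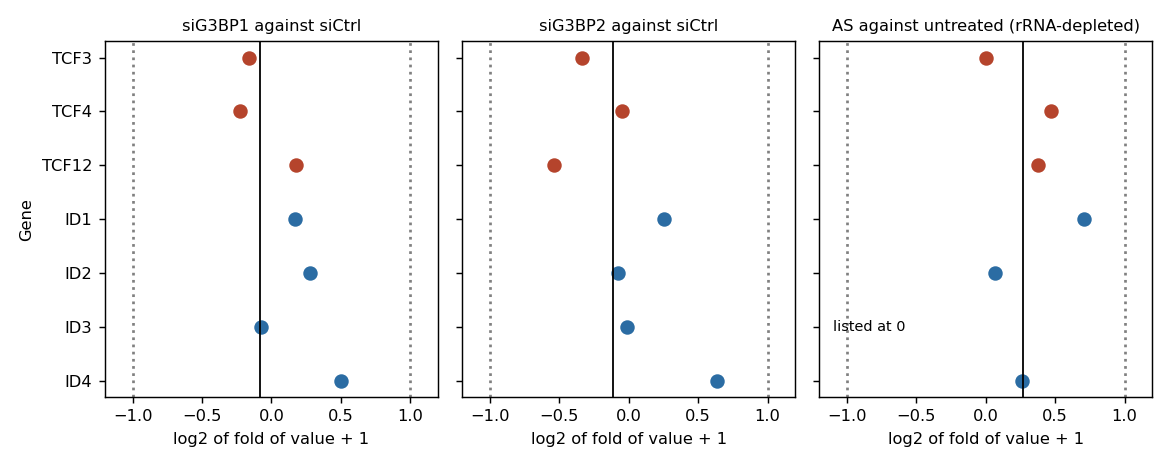
Log2 fold of value + 1 of each member in both knockdowns (TPM) and under AS (rRNA-depleted values summed over transcripts), with E proteins in red and ID genes in blue, the median of all genes above 1 as a solid line and the 2-fold limits dotted. No point lies beyond the limits, ID4 lies farthest right in both knockdowns, and ID3 is listed at 0 in the rRNA-depleted libraries.

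In SG all 7 mRNAs were higher than in Total, TCF4 by the most and ID3 by the least. TCF4 went from 6.81 TPM in Total to 628 TPM in SG, a log2 fold of 6.33. It was at percentile 99.7 of the genes above 1 TPM in either library, a limit that it passed in both. TCF12 went from 14.5 to 134 TPM (log2 fold 3.12) and TCF3 from 95.2 to 617 TPM (2.68). Among the ID mRNAs, ID4 went from 5.98 to 48.8 TPM (2.84), ID2 from 61.3 to 405 TPM (2.70), ID1 from 79.0 to 370 TPM (2.21) and ID3 from 70.2 to 142 TPM (1.01), just past the 2-fold limit. All 7 were past 2-fold higher, as were 42.8% of all genes, with 6.43% past it lower, and 62.9% of the genes above 1 TPM in either library. The median log2 fold was 3.12 for the E protein mRNAs, 2.46 for the ID mRNAs and 1.51 for all genes above 1 TPM. Once SG was rescaled so that the median ratio of genes above 1 TPM in both libraries was 1, TCF4 was at a log2 fold of 4.86, TCF12 at 1.66, ID4 at 1.41, ID2 at 1.24 and TCF3 at 1.21, while ID1 was at 0.75 and ID3 at -0.45, below the typical gene.

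Within the TPM libraries, the balance between the groups was another in SG than in siCtrl and Total. Summed TPM of E protein over ID mRNAs was 0.287 in siCtrl, 0.538 in Total and 1.43 in SG, a comparison within each library that no scaling of a whole library changes. TCF4 made up 9.45% of the E protein sum in siCtrl, 5.85% in Total and 45.6% in SG, where its level was 1.02 times that of TCF3. Against ID2, TCF4 was at 0.0660 times its level in siCtrl, 0.111 times in Total and 1.55 times in SG.

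Total itself stood below siCtrl for these mRNAs, and this bears on every SG to Total fold. ID2 was at a log2 fold of -2.36 in Total against siCtrl, ID1 at -1.86, TCF4 at -1.50, ID3 at -1.14, TCF3 at -0.91, ID4 at -0.81 and TCF12 at -0.55, with a median of -0.41 over all genes. ID1, ID2, ID3 and TCF4 were past 2-fold lower, as were 12.0% of all genes and 19.6% of the genes above 1 TPM in either library. Total is a cleared lysate of AS-treated cells and siCtrl is whole transfected cells, so fraction, AS, siRNA and any difference in RNA selection cannot be told apart in this comparison. When SG was set against siCtrl in place of Total, a choice made after seeing the data, 4 of the 7 were past 2-fold higher. So were 36.7% of all genes and 53.8% of the genes above 1 TPM in either library. The 4 were TCF4 at a log2 fold of 4.83, TCF12 at 2.57, ID4 at 2.03 and TCF3 at 1.77. ID1 (0.36), ID2 (0.35) and ID3 (-0.13) were not, so the 3 short ID mRNAs were past the limit only with Total as the reference.

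Longer mRNAs were in general higher in SG, and the members were therefore read beside genes of broadly similar length. Across 13548 genes, which are not independent replicates, Spearman's rho between the longest transcript and the log2 fold was 0.632, and the median log2 fold was -0.25, 0.88, 1.60, 2.29 and 3.22 from the shortest to the longest quintile of length. ID1, ID2 and ID3 were in the shortest quintile, of 42 to 2122 nt, at percentiles 92.7, 95.2 and 75.8 of its 2710 genes. ID4 was at percentile 84.9 of quintile 3, counted from the shortest. TCF3 and TCF12, both in quintile 4, were nearer to its middle, at percentiles 61.5 and 73.2. TCF4 was at percentile 99.0 of the quintile of the longest transcripts, a log2 difference of 3.11 from its median. The difference between a member and the median of its quintile was 2.96 for ID2, 2.47 for ID1, 1.26 for ID3, 1.24 for ID4, 0.83 for TCF12 and 0.40 for TCF3. Measured from the median of their own quintile, with Total as the reference, all 4 ID mRNAs stood higher than TCF12 and TCF3. By percentile, ID3 and TCF12 were close. The quintiles are wide, and ID2, at 2041 nt, lies near the upper end of its own, beside the one with a median of 0.88. Against siCtrl, ID1 and ID2 had log2 folds of 0.36 and 0.35, below TCF12 (2.57) and TCF3 (1.77).

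**Figure D3:**
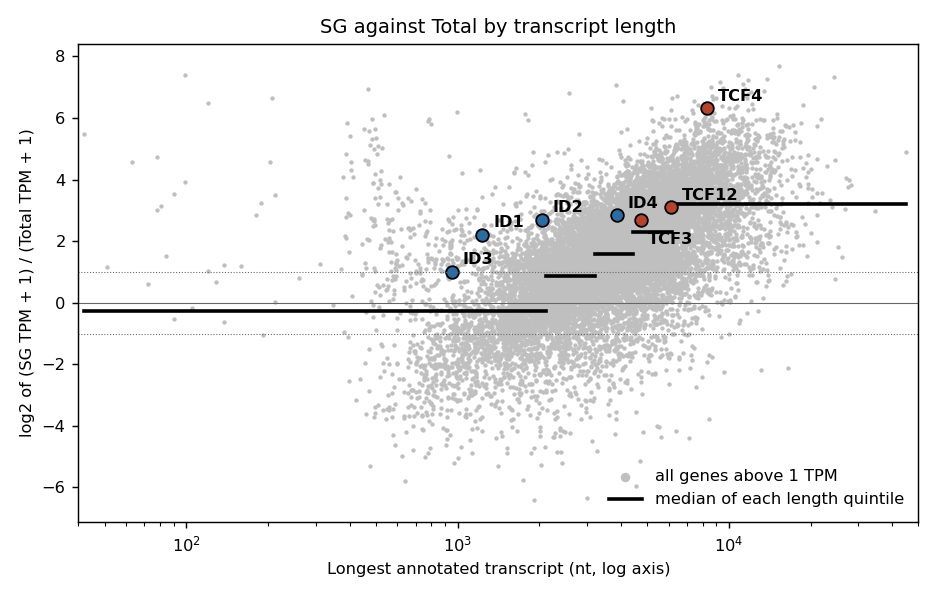
Log2 fold of TPM + 1 of SG against Total over the length of the longest annotated transcript (nt, log axis) for all genes above 1 TPM in either library (grey), with E protein genes in red, ID genes in blue and the median of each length quintile as a black bar. TCF4 (6.33) lies above nearly all genes of its length, and ID1 and ID2 lie well above the median of -0.25 of their quintile.

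Genes with TPM most like TCF4 were ranked by the distance of log2(TPM + 1) over the 5 libraries among 13673 genes. They were ZKSCAN1 (distance 0.511), PRRC2C (0.629) and ZC3H4 (0.798). ZKSCAN1, which encodes a zinc finger factor, was at 20.01 TPM in siCtrl, 6.94 in Total and 486 in SG. The longest transcripts of these 3 genes measured 9403, 10624 and 6143 nt. For ID2, the nearest gene was ID1 (0.512), followed at a larger distance by IGFBP3 (1.32) and CACNG4 (1.34).

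In the rRNA-depleted libraries no member passed 2-fold under AS, while 2.26% of all genes were called higher and 0.361% lower. The values of this table are RPKM built from whole reads, so that the reads of the transcript with the most reads could be recovered, and the exact 95% intervals below cover counting error only. TCF4 had 3610 reads in untreated and 3906 in AS-treated cells (32.6 and 41.5 RPKM), a ratio of 1.27 (1.22 to 1.33). TCF12 had 1242 and 1398 reads (15.3 and 20.3 RPKM), a ratio of 1.33 (1.23 to 1.43). TCF3 had 1527 and 1228 reads (24.3 and 23.0 RPKM), a ratio of 0.947 (0.878 to 1.02). These are to be read against a median ratio of 1.21 over 10135 genes, which lay just below the lower bounds of TCF4 and TCF12 and above the upper bound of TCF3.

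Of the ID mRNAs, ID1 had the highest ratio that rested on many reads. It had 289 reads in untreated and 400 in AS-treated cells (17.6 and 28.8 RPKM), a ratio of 1.63 (1.40 to 1.90), whose lower bound was above the median of all genes. ID2 had 826 and 729 reads (30.4 and 31.7 RPKM), a ratio of 1.04 (0.940 to 1.15), whose upper bound was below that median. ID4 had only 14 and 23 reads (0.272 and 0.526 RPKM), a ratio of 1.94 (0.955 to 4.07), and a difference was not detectable at this depth. ID3 was listed at 0 in all 3 of its transcripts, although it was at 156 TPM in siCtrl. It was 1 of 8 genes at 0 in this table among the 1169 genes above 100 TPM in siCtrl, 6 of which, RPS18, RPS25 and MIF among them, were also at 0 in every eCLIP library. No level of ID3 is therefore drawn from either table.

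**Figure D4:**
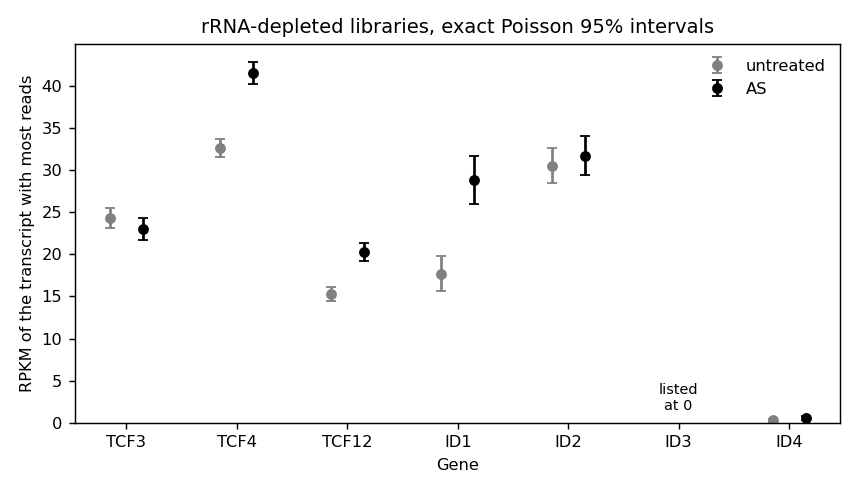
RPKM of the transcript with the most reads of each member in the untreated (grey) and AS-treated (black) rRNA-depleted libraries, 1 library each, with exact Poisson 95% intervals on the recovered reads. The intervals, which cover counting error only, do not overlap between the libraries for TCF4, TCF12 and ID1, and do for TCF3, ID2 and ID4. How many of all genes lack such an overlap was not counted, and the median ratio of AS to untreated over 10135 genes was 1.21.

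The transcripts of a gene shared their direction for the most part. Of the 93 TCF4 transcripts, 84 were above 1 RPKM and 76 of these were higher under AS, and of the 25 TCF12 transcripts above 1 RPKM all 25 were. For TCF3 this held for 7 of 19. The median ratio over 80740 protein-coding transcripts above 1 RPKM in both libraries was 1.19, so most of those were also higher under AS. The median ratio of the member transcripts was 1.39 for TCF4, 1.31 for TCF12 and 0.974 for TCF3. Only 1 member transcript passed 2-fold, a retained-intron transcript of TCF4 of 463 nt, which had 10 reads in untreated cells and 0 in AS-treated cells, where 0 allows up to 3. Among all transcripts of protein-coding genes 0.768% were called higher and 0.212% lower. Transcripts of a gene share exons and a read was counted in each of them, so they are not separate measurements.

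Levels per length differed between the kinds of library. In siCtrl, ID2 was 15.1 times as abundant as TCF4 in TPM, whereas in the untreated rRNA-depleted library TCF4 was at 1.07 times the RPKM of ID2, each by its transcript with the most reads, and at 1.31 times under AS. With the canonical transcripts, a choice made after seeing the data, these ratios were 0.700 and 0.859, because the canonical ID2 transcript has 824 reads over 1299 nt in place of 826 over 2041 nt. Summed over genes, E protein mRNAs were at 0.367 times the level of ID1 plus ID2 in siCtrl and, in the untreated rRNA-depleted library, at 1.5 times by the transcripts with the most reads and 1.07 times by the canonical ones. RNA selection, annotation and estimation all differ between these tables, and their part was not tested.

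In eCLIP the deposited values of the groups did not overlap in any of the 8 libraries. The deposited unit is the log10 of 1 plus a whole number. For TCF4 it was 4.84 and 4.26 in the Ctrl libraries of G3BP1, 4.78 and 4.10 in its AS libraries, 4.85 and 4.51 in the Ctrl libraries of G3BP2, and 4.86 and 4.27 in its AS libraries. That is above 99.9% of all genes in every library. The number behind it was between 0.243% and 0.303% of the numbers summed over all genes, which is not known to be a share of reads. TCF12 lay between 3.39 and 4.11 and TCF3 between 2.50 and 3.05. Of the ID genes, ID2 (0.85 to 1.70) was the highest in 5 libraries and ID4 (0.95 to 1.45) in the other 3, and ID3 was listed at 0 in all 8.

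ID1 was above 0 in untreated cells only. Its numbers were 10 and 0 in untreated cells with G3BP1, and 4 and 6 with G3BP2, and it was listed at 0 in all 4 AS libraries, where 0 allows up to 3. Across the table, 23 genes (0.115%) were above 0 in at least 3 of the 4 untreated libraries and at 0 in all 4 AS libraries. The reverse was seen for 11 genes (0.0552%). The pattern counted is the one that ID1 itself shows, so these counts are a description and no support for a change. In the rRNA-depleted libraries the ID1 reads were higher under AS, as given above.

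Levels of the groups in eCLIP depended on the length by which they were divided, and the ratios here leave out ID3, which was listed at 0. The recovered numbers summed to 4268660 to 26179700 per library, and the median E protein gene had 310.1 to 787.1 times the number of the median of ID1, ID2 and ID4. Divided by the summed genomic span of all annotated transcripts of each gene, introns included, which is 19315 kb for TCF4 and 10.2 kb for ID2, the values came closer together. In the deepest Ctrl library of G3BP1 they were 3.58 per kb for TCF4, 3.26 for TCF12, 2.95 for TCF3, 4.06 for ID1, 4.27 for ID2 and 5.37 for ID4, with a median of 3.35 over all genes. TCF4 was thereby at percentile 59.2 of all genes, against percentile 99.95 by the value as deposited. Over the 8 libraries the median E protein gene was at 0.741 times the median of these 3 ID genes per kb of summed span (lowest 0.634, highest 1.28), a span that grows with the number of annotated transcripts. It was still at 5.74 times per kb of the gene from start to end (lowest 4.06, highest 7.83) and at 238 times per kb of the longest transcript. With ID3 entered at 0 the ratio per kb of summed span was 1.32 (lowest 0.782, highest 2.56), so its direction turned with that gene. Across all genes, Pearson's r of the deposited value was 0.858 to 0.868 with the log10 summed span and 0.564 to 0.572 with the log10 longest transcript, a description over genes that share the library and the annotation.

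**Figure D5:**
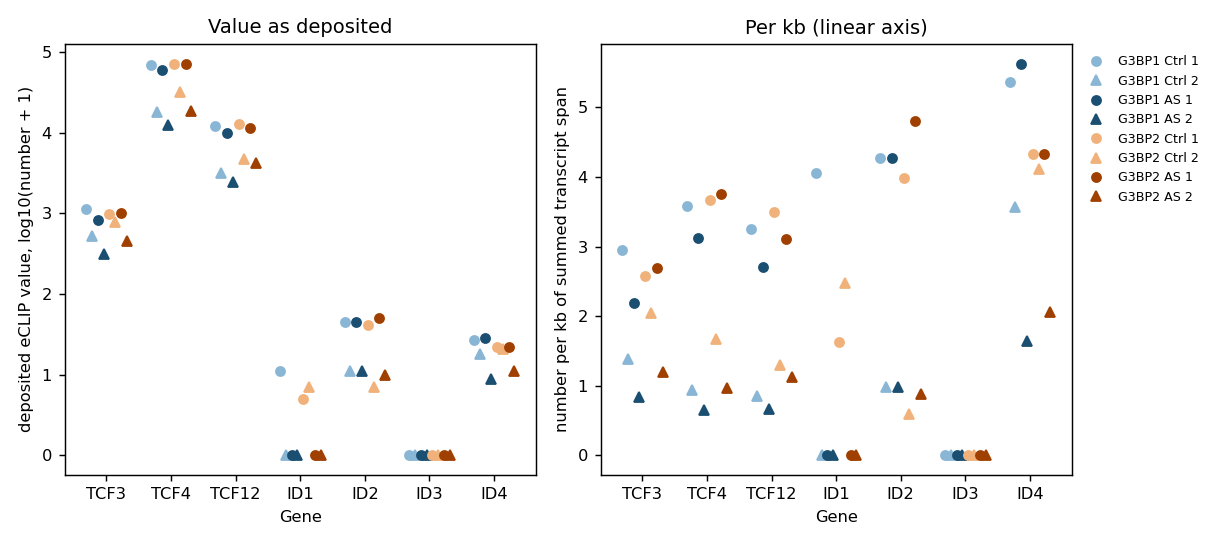
eCLIP values of the 7 genes in the 8 libraries, as deposited (left, log10 of the number + 1) and as the recovered number per kb of summed transcript span (right, linear axis), with blue for G3BP1, orange for G3BP2, dark for AS, light for Ctrl, circles for replicate 1 and triangles for replicate 2. On the left TCF4 stands near 4 to 5 and the ID genes below 2, while on the right TCF4, TCF12, TCF3 and ID2 cover overlapping ranges. Replicates 2 lie lower on the right, except where both are at 0 and for ID1 with G3BP2 in Ctrl (1.63 in replicate 1, 2.48 in replicate 2).

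No member changed in eCLIP under AS in the limma test (Benjamini-Hochberg adjusted p under 0.05 over all genes). For TCF4 the mean log10 value with G3BP1 was 4.55 ± 0.41 (SD, n = 2) in Ctrl and 4.44 ± 0.48 (SD, n = 2) in AS, a change of -0.11 (95% interval -1.49 to 1.27). With G3BP2 it was 4.68 ± 0.24 (SD, n = 2) and 4.565 ± 0.42 (SD, n = 2), a change of -0.115 (-1.09 to 0.86). The 5 members tested with G3BP1 changed by -0.175 to 0 and had a limma adjusted p of 1. Of the 6 tested with G3BP2, ID1 had the largest change, -0.775 (SE 0.438), at an unadjusted limma p of 0.0768 and an adjusted p of 1. With G3BP2 its numbers were 4 and 6 in Ctrl and 0 in both AS libraries, so it passed the filter only through Ctrl. No p-value of ID1, in this fit or in another setting, is read as support for a change. No member was under an unadjusted p of 0.05 with either protein in this fit. Other settings put ID1 with G3BP2 there, on the same low numbers. The unadjusted limma p was 0.0125 and the adjusted p 0.896 with the replicate block. With no filter on low values the unadjusted limma p was 0.000236 and the adjusted p 0.157. Over all genes limma called 0% higher and 0% lower with G3BP1, 0.0105% higher and 0% lower with G3BP2, while 46 and 159 genes were under an unadjusted p of 0.05. The AS effect differed between the proteins by -0.255 to 0.115 over the 6 members tested, with a limma adjusted p of 1 for each and 0% of all genes called.

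Total numbers differed between replicates. In every group replicate 1 held the larger total, 23984900 against 6790280 in Ctrl and 22678600 against 4268660 in AS for G3BP1. With every library scaled to the same total, the TCF4 change was 0.0030 (95% interval -0.057 to 0.063) with G3BP1 and -0.042 (-0.11 to 0.030) with G3BP2, and TCF12 changed by 0.018 with both, with a limma adjusted p of 0.99 or above. The scaled intervals of the ID genes with G3BP2 were wider, -1.61 to 0.070 for ID1, which had been -1.63 to 0.083 unscaled, -0.36 to 0.74 for ID2 and -0.60 to 0.45 for ID4.

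Genes that act with these factors were read from lists of known partners and regulators, beside 62.9% higher and 9.45% lower among all genes above 1 TPM in SG or Total. The length of the listed mRNAs was not taken into account. By length alone, the share past 2-fold higher went from 24.2% in the shortest quintile to 91.7% in the longest. Of 40 tissue-restricted bHLH partners, 15 were above 1 TPM in SG or Total, of which 9 were past 2-fold higher in SG and 1 lower, with a median log2 fold of 1.39 against 1.51 over all genes. The most abundant of them, HAND2, which specifies sympathetic neurons, went from 440 to 1371 TPM. Of 11 HES and HEY repressors, 7 were above 1 TPM, 3 were higher and 1 lower, and the lower one, HES4, went from 8.42 to 1.48 TPM. Of 27 BMP and SMAD genes, 22 were above 1 TPM and 20 were higher (median 3.13). The most abundant, ENG and BAMBI, had log2 folds of 0.75 and 1.23. Next came SMAD9, a BMP-activated SMAD, going from 10.1 to 209 TPM, and ACVR2B, a receptor, going from 1.90 to 126 TPM. Of 14 E protein cofactors and ID turnover genes, 10 of the 12 above 1 TPM were higher (median 2.02). The most abundant, LDB1 and LMO1, had log2 folds of 1.60 and -0.74, and the acetyltransferase gene CREBBP went from 0.777 to 301 TPM. Abundance is here the mean TPM over the 5 libraries, SG included, so CREBBP and ACVR2B ranked high largely through SG itself. The HMG-box genes TCF7, TCF7L1 and TCF7L2 were all higher, TCF7L2 from 3.31 to 63.3 TPM, and LEF1 was below 1 TPM.

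In the knockdowns these lists held 3 genes past 2-fold, all cofactor genes, of which LDB2 and EP300 were named after their values were seen, beside 0.692% of all genes higher and 1.22% lower in siG3BP1 and 0.752% and 1.77% in siG3BP2. LDB2 was higher in siG3BP1, at 0.302 TPM in siCtrl and 1.83 TPM in siG3BP1. It was at 0.057 TPM in siG3BP2, so among the siRNA libraries it passed the minimum of 1 TPM only where it was called. The paralogous acetyltransferase genes CREBBP and EP300 were lower in siG3BP2, CREBBP at 14.9 TPM in siCtrl and 6.41 TPM in siG3BP2 (log2 fold -1.098) and EP300 at 14.8 and 4.33 TPM (-1.57), against 14.3 and 12.7 TPM in siG3BP1. Both were also high in SG, EP300 going from 1.44 TPM in Total to 175 TPM. The median of the BMP and SMAD list was -0.01 in siG3BP1 and -0.34 in siG3BP2. Under AS, 1 of the BMP and SMAD genes and 1 of the bHLH partners were past 2-fold higher in the rRNA-depleted libraries (2.26% of all genes), and the medians of both lists (0.26 and 0.02) lay at or below that of all genes, 0.27.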

How the data were processed

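SH-SY5Y libraries were grouped by the GEO labels, and 4 SMInput libraries were not analysed here. The members and lists were chosen with earlier results of these data known. The authors aligned the reads of the siRNA, Total and SG libraries with HISAT2 2.1.0 and deposited StringTie TPM per gene, which keeps no depth. The rRNA-depleted values per transcript are headed TPM by the authors, but value times length was a whole multiple of 1 step for at least 99.9993% of the matched transcripts above 0 (tolerance 0.01 reads), so the deposited values were read as RPKM, with 13291958 (untreated) and 11281587 (AS) reads behind the unit. Lengths came from GENCODE 44, matched for 88.5% of transcripts by versioned ID and for 19910 of 19942 genes. For eCLIP the authors used fastp, STAR, CLIPper and SMInput, and deposited log10 values without scaling between libraries, and which steps the numbers include is not given in the sources used here. RNA-seq differences are folds of value + 1 (limit 2, minimum 1), without a test. eCLIP values above 0 in at least 2 libraries were tested with limma 3.58.1 (trend, Benjamini-Hochberg over all genes, threshold 0.05). All 7 members were named, with G3BP1 and G3BP2, the 3 genes nearest to TCF4 and to the most abundant ID gene, and up to 4 of the most abundant genes of each list, of which 1 is not reported here.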

Additional observations from a re-analysis of the deposited data

How the results depend on the processing

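The count of 7 members past 2-fold higher in SG against Total was 5 to 7 under the pseudocount of 0.1, the fold limit of 4, no minimum, equal sums and a median ratio of 1, and 4 with siCtrl as the reference, an alternative chosen after seeing the data. The share of all genes called higher moved as well. It was 44.8%, 26.7%, 42.8%, 39.5% and 22.6% in that order, and 36.7% with siCtrl. ID3 changed direction, with a log2 fold of -0.45 at a median ratio of 1 and -0.13 against siCtrl. At a fold limit of 1.5, 1 member (ID4) was called higher in siG3BP2, beside 2.10% of all genes. Under AS in the rRNA-depleted libraries, 1 member (ID1) was called higher at that limit, beside 10.4% of all genes. No member was called otherwise in either comparison. The ratio of E protein to ID transcript length, 3.73, was 1.53 with the mean over transcripts. The eCLIP ratio of E protein to ID genes per kb of summed span, 1.32 with ID3 at 0, was 9.13 over the gene from start to end and 429 over the longest transcript. Without ID3 these were 0.741, 5.74 and 238, and pooled over genes the first was 1.01 with ID3 and 0.830 without, all 5 chosen after seeing the data.

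No eCLIP alternative called a member. The replicate block gave 0 members with either protein and for their difference, and the block with scaling, run for each protein and not for the difference, gave 0 as well. At an unadjusted p, the block and no filter each put ID1 with G3BP2 under 0.05, on numbers of 4 and 6 in Ctrl and 0 in both AS libraries. Deviations of libraries with the same number correlated at 0.150 (G3BP1) and 0.0650 (G3BP2) across genes, and no label ties the numbers to a shared batch. Scaling to the same total, with or without the replicate block, turned the change of TCF4 with G3BP1 to 0.0030 and of TCF12 to 0.018 with both proteins. Without 1 replicate, where a lone library was assumed to vary like the others, the count stayed at 0 (0 to 0) and the changes with G3BP1 ranged from -0.385 to 0.035 for TCF3, -0.45 to 0.23 for TCF4, -0.40 to 0.21 for TCF12, -0.305 to 0.305 for ID2 and -0.395 to 0.105 for ID4. With G3BP2 they ranged from -0.28 to 0.07 for TCF3, -0.41 to 0.18 for TCF4, -0.275 to 0.165 for TCF12, -0.27 to 0.50 for ID2 and -0.29 to 0.01 for ID4, and stood at -0.775 for ID1 in both fits that kept it. Unequal depth of the replicates and 1 library per RNA-seq condition limit every comparison, and the causes of these shifts were not tested.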
